A study of Mus musculus with 6 samples.

Results

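The insulin receptor pathway of liver was followed through 10 genes, chosen by symbol from the deposited expression table. They were the receptor Insr, its substrates Irs1 and Irs2, the receptor inhibitor Grb14, the phosphoinositide 3-kinase regulatory subunit gene Pik3r1 and the kinase gene Akt2. The others were the transcription factor Foxo1, and Igfbp1, Igfbp2 and Trib1. All 10 were found among 15960 genes, and all 10 passed the filter on low values (1 FPKM or more in 3 or more of the 6 libraries; FPKM is the fragment count scaled to transcript length and to all mapped fragments), which left 9968 tested genes. The libraries were made from liver RNA of C57BL/6 mice aged 22 weeks, 3 of Cyp2e1-/- mice (knockout) and 3 of Cyp2e1+/+ mice (wild type). Both genotypes carried the same strain label and, per the series design, had eaten a high-fat diet for 14 weeks, so no group on another diet is compared. The sources used here do not give how the deletion was made, the sex, the feeding state and time of day at collection, or whether a library is 1 mouse or a pool.

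Insulin binds its receptor on hepatocytes, which phosphorylates IRS proteins, recruits phosphoinositide 3-kinase and activates AKT2. AKT then phosphorylates FOXO1 and keeps it out of the nucleus, and the genes that FOXO1 activates, among them Igfbp1 and the gluconeogenic genes Pck1 and G6pc, go silent after a meal. Insulin also induces genes of glucose use and lipogenesis such as Pklr and Srebf1. RNA levels show none of the phosphorylation steps, and the results below concern transcript abundance only.

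The secreted protein gene Igfbp1 carries a well-known insulin response element in its promoter, and Irs1 and Irs2 are the other members whose promoter window held the same letters. These 3 windows are shown because the values of these genes are set side by side below. They run from 250 bases before to 50 bases after the annotated start (RefSeq, GRCm38.p6, the assembly that mm10 names), 5′ to 3′ on the strand of the gene. Capitals mark CAAAACA on either strand (TGTTTTG when read on the other) and the E-box CACGTG, which share the bases TG in the first match of Irs1.
Igfbp1, chr11:7197537-7197836, plus strand: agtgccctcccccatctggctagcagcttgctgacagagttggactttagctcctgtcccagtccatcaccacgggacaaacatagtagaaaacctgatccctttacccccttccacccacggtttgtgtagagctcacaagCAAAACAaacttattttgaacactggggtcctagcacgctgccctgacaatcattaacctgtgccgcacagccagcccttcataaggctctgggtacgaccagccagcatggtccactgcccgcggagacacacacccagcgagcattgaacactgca
Irs2, chr8:11008880-11009179, minus strand: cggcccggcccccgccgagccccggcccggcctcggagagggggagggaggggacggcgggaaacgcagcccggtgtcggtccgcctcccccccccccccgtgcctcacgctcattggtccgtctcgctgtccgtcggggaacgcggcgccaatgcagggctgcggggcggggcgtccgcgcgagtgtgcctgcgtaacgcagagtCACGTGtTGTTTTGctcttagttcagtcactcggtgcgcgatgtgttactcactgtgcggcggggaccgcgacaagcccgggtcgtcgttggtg
Irs1, chr1:82291390-82291689, minus strand: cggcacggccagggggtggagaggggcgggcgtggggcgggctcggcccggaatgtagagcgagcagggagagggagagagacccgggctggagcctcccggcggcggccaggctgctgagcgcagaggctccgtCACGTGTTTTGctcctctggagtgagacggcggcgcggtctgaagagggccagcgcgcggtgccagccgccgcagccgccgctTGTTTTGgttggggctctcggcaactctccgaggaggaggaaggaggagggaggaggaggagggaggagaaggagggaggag
The match lay at -108 from the start in Igfbp1, at -37 in Irs2 and at -111 and -32 in Irs1. In Irs1 and Irs2 an E-box began at -115 and -44, overlapping the first match in Irs1 and ending 1 base before the match in Irs2. Windows were at hand for 8 of the 10 members (all but Insr and Trib1). Of the windows at their annotated starts, 3 held CAAAACA, 3 held CACGTG (Irs1, Irs2 and Igfbp2) and 0 held the FOXO consensus GTAAACA. Over all 32851 windows of this length, 6.28% held CAAAACA, 7.15% held CACGTG and 3.65% held GTAAACA, each searched on both strands. A match of letters is a description and not a site.

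Libraries summed to 562590 to 624264 FPKM. Cyp2e1, the deleted gene, was at 247 to 271 FPKM in libraries labelled knockout, against 5942 to 7427 FPKM in those labelled wild type. All 7 hepatocyte markers were detected, and their summed level ranged over 45230 to 52910 FPKM (knockout) and 41670 to 48660 FPKM (wild type). Knockout replicate 1 stood apart: its 10 most abundant genes took 37.7% of the FPKM sum against 32.5% to 33.5% in the others, and its depth, estimated in units of 1e6 fragments from steps in low values, was 12 against 9.24 to 9.9. Of all tested genes 57.3% had their lowest knockout value in this library and 46.7% their lowest wild type value in wild type replicate 1. Counts of called genes are given with and without replicate 1 of both genotypes.

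Igfbp2 was the most abundant member in both genotypes. In wild type it was followed by Akt2 (27.7 ± 1.05 FPKM; SD, n = 3 here and for every level below), Grb14 and Igfbp1, and then by Pik3r1, Trib1, Foxo1 and Insr between 12.2 and 9.24 FPKM. Irs1 and Irs2 closed the order at 1.04 ± 0.16 and 0.993 ± 0.58 FPKM. From Grb14 down to Insr every neighbouring pair overlapped in its range over the wild type libraries, as did Irs1 and Irs2, so the order within these runs is not settled. Igfbp2, Akt2 and Insr each lay above the next member with no overlap. In the knockout Igfbp1 followed Igfbp2, with a range that overlapped that of Akt2, and the ranges of Trib1, Insr, Foxo1 and Pik3r1 again overlapped from one to the next.

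No member passed the genotype test in the fit without pairing, and Igfbp1 passed when libraries of the same replicate number were treated as pairs. The numbers come from the titles, which do not say that same-numbered libraries were matched, so the fit without pairing is the main one. In the fit without pairing, of the 10 members 0 had an adjusted p under 0.05 (limma on log2(FPKM + 1), Benjamini-Hochberg over all tested genes), against 0.762% of all tested genes. With the replicate number as a block 1 passed, against 0.722% of tested genes. At an unadjusted p under 0.05 there were 4 (Igfbp1, Igfbp2, Trib1 and Insr, all with higher means in the knockout), against 9.93% of tested genes. Fold changes (knockout minus wild type) were positive for 8 members and negative for 2, with a median of 0.29 on the log2 scale, against -0.03 over all tested genes. Groups did not overlap for Igfbp1 and Trib1, higher in the knockout (5.32% of tested genes), and for Grb14, lower in it (10% of tested genes). Scaling libraries by quantiles, by their median or without the major urinary protein genes left the direction of all 10 as it was. Within same-numbered pairs the knockout library was the higher in all 3 pairs for 5 members (Insr, Irs2, Foxo1, Igfbp1 and Trib1), against 13.2% of tested genes, and the lower in all 3 for 2 members (Grb14 and Pik3r1), against 22.1%.

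**Figure D1:**
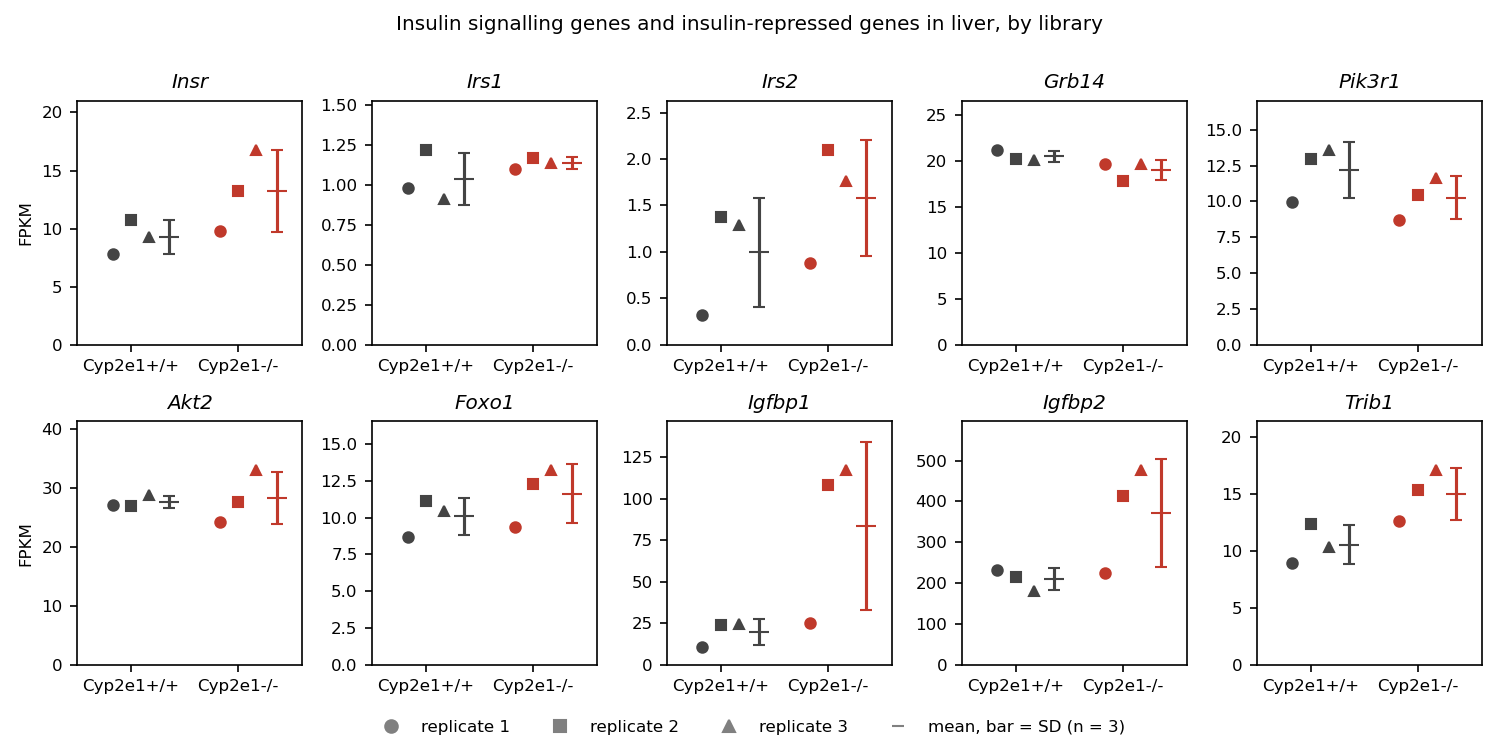
FPKM of the 10 members (linear axes from 0) in each library of wild type (grey) and knockout (red), with symbols for replicate numbers and the mean ± SD of n = 3 at the right of each group. Knockout replicates 2 and 3 of Igfbp1 (108 and 117 FPKM) and Igfbp2 (413 and 477) stand above all other libraries, while knockout replicate 1 lies at or near the wild type values.

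Igfbp1 encodes insulin-like growth factor binding protein 1, which liver secretes in fasting (gene 16006, chromosome 11, 7197787 to 7202546). It stood at 25.3, 108 and 117 FPKM in knockout replicates 1, 2 and 3 and at 10.8, 23.9 and 24.7 FPKM in the wild type replicates. The lowest knockout library was thus just above the highest wild type library, and the other knockout libraries were far above it. Means were 83.7 ± 50.8 and 19.8 ± 7.8 FPKM, a ratio of 4.22. The log2 fold change was 1.83 (SE 0.52, 95% interval 0.67 to 2.99; limma, adjusted p = 0.21), and only 0.181% of tested genes had a fold change as large in either direction. When the replicate number was added as a block, the fold change passed the test at the same size (limma, adjusted p = 0.027). Without knockout replicate 1 the fold change was 2.53 (limma, adjusted p = 0.0028), and without replicate 1 of both genotypes, which leaves 2 libraries each, 2.17 (limma, adjusted p = 2.4e-06). Leaving out the library with the lowest knockout value raises the fold change by construction. Of all tested genes, 2.12% passed without knockout replicate 1 and 11.9% without replicate 1 of both genotypes.

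Igfbp2 encodes a second circulating binding protein of insulin-like growth factors, whose liver transcript is lowered by insulin (gene 16008, chromosome 1, 72824480 to 72852474). Its level was 224, 413 and 477 FPKM in the knockout libraries and 233, 215 and 180 in wild type. Knockout replicate 1 lay between the wild type values, and knockout replicates 2 and 3 lay above all of them. The means of 371 ± 131 and 209 ± 26.7 FPKM gave a log2 fold change of 0.76 (SE 0.25, 95% interval 0.21 to 1.31; limma, adjusted p = 0.30). Without knockout replicate 1 it was 1.09 (limma, adjusted p = 0.0046), and without replicate 1 of both genotypes 1.17 (limma, adjusted p = 1.9e-04). Of all tested genes 2.12% and 11.9% passed in these fits, in that order. Replicate 1 held the lowest knockout and the highest wild type value of Igfbp2, so leaving it out raises the fold change by construction. Igfbp1 and Igfbp2 thus had their high values in the same knockout libraries.

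Trib1 encodes a pseudokinase that directs the transcription factor C/EBPα to degradation and is tied to plasma lipids (gene 211770, chromosome 15, 59648654 to 59657099). Its level was 12.6, 15.3 and 17.1 FPKM across the knockout, against 8.94, 12.4 and 10.3 across wild type. All 3 knockout libraries were above all wild type libraries, the lowest by a margin of under 1 FPKM. Its log2 fold change came to 0.47 (SE 0.16, 95% interval 0.11 to 0.83; limma, adjusted p = 0.33), and 0.48 without replicate 1 of both genotypes (limma, adjusted p = 0.039). Here leaving out these libraries changed the call and hardly the size, in a fit that 11.9% of all tested genes passed.

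Insr, the receptor gene (gene 16337, chromosome 8, 3150922 to 3279649), had 9.76, 13.2 and 16.8 FPKM across knockout replicates, against 7.77, 10.7 and 9.25 across wild type. Knockout replicate 1 lay within the wild type range, and the other knockout libraries lay above it. For Insr the log2 fold change came to 0.46 (SE 0.19, 95% interval 0.02 to 0.89; limma, adjusted p = 0.48), and 0.54 without replicate 1 of both genotypes (limma, adjusted p = 0.041). In the latter fit 11.9% of all tested genes passed. A gene-level value does not part the receptor's A and B splice forms.

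Irs2, the substrate whose gene FOXO1 activates in fasting liver (gene 384783, chromosome 8, 10984681 to 11008929), was low throughout. It had 0.88, 2.1 and 1.76 FPKM across knockout replicates, against 0.32, 1.37 and 1.29 across wild type. Replicate 1 was the lowest library in each genotype, and the groups overlapped. By the estimated depth these values stand for about 66 to 123 fragments per knockout library and 19 to 84 per wild type library. For Irs2 the log2 fold change came to 0.39 (SE 0.26, 95% interval -0.20 to 0.98; limma, adjusted p = 0.69). The value was 0.12 without wild type replicate 1, 0.60 without knockout replicate 1 and 0.74 with a pseudocount of 0.1, and it passed in none of these. Exons of Irs2 overlap those of the non-coding gene 9530052E02Rik, which was listed at 0 to 0.12 FPKM. Irs1, the substrate studied most in muscle and fat (gene 16367, chromosome 1, 82233105 to 82291439), had 1.1, 1.17 and 1.14 FPKM across knockout replicates, against 0.98, 1.22 and 0.91 across wild type. All knockout values of Irs1 lay inside the wild type range, and the 95% interval of its log2 fold change of 0.07 ran from -0.26 to 0.40 (limma, adjusted p = 0.94). Of the 3 genes whose promoter windows are printed above, Igfbp1 had the largest fold change.

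Grb14 encodes an adaptor that binds the active receptor and inhibits it (gene 50915, chromosome 2, 64912476 to 65022766). It had 19.7, 17.8 and 19.7 FPKM across knockout replicates, against 21.2, 20.2 and 20.1 across wild type. The groups did not overlap, but the gap between the nearest libraries was under 1 FPKM. Grb14 had a log2 fold change of -0.10 (SE 0.12, 95% interval -0.36 to 0.16; limma, adjusted p = 0.87). The interval takes in no change, falls down to its lower bound and rises up to its upper bound.

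Pik3r1 encodes the regulatory subunits of phosphoinositide 3-kinase (gene 18708, chromosome 13, 101680761 to 101768217). It had 8.7, 10.4 and 11.7 FPKM across knockout replicates, against 9.95, 12.95 and 13.6 across wild type. The groups overlapped, and replicate 1 was lowest in both. Pik3r1 had a log2 fold change of -0.22 (SE 0.16, 95% interval -0.58 to 0.14; limma, adjusted p = 0.72). The table sums its transcripts, so the p85α, p55α and p50α forms cannot be told apart. Akt2, the AKT kinase gene that matters most for insulin action in liver (gene 11652, chromosome 7, 27591552 to 27640826), had 24.2, 27.6 and 33.1 FPKM across knockout replicates, against 27.2, 27.1 and 28.9 across wild type. The knockout libraries of Akt2 spanned the wild type range on both sides. Its log2 fold change of 0.02 (95% interval -0.29 to 0.33; limma, adjusted p = 0.99) was -0.09 without knockout replicate 3. Foxo1 itself (gene 56458, chromosome 3, 52268337 to 52350109) had 9.38, 12.3 and 13.2 FPKM across knockout replicates, against 8.67, 11.1 and 10.5 across wild type. Its groups overlapped, with a log2 fold change of 0.18 (95% interval -0.18 to 0.54; limma, adjusted p = 0.79). Leaving out 1 library gave 0.09 to 0.32 for Foxo1, lowest without wild type replicate 1 and highest without knockout replicate 1. For Pik3r1 it gave -0.35 without wild type replicate 1 and -0.12 without knockout replicate 1.

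**Figure D2:**
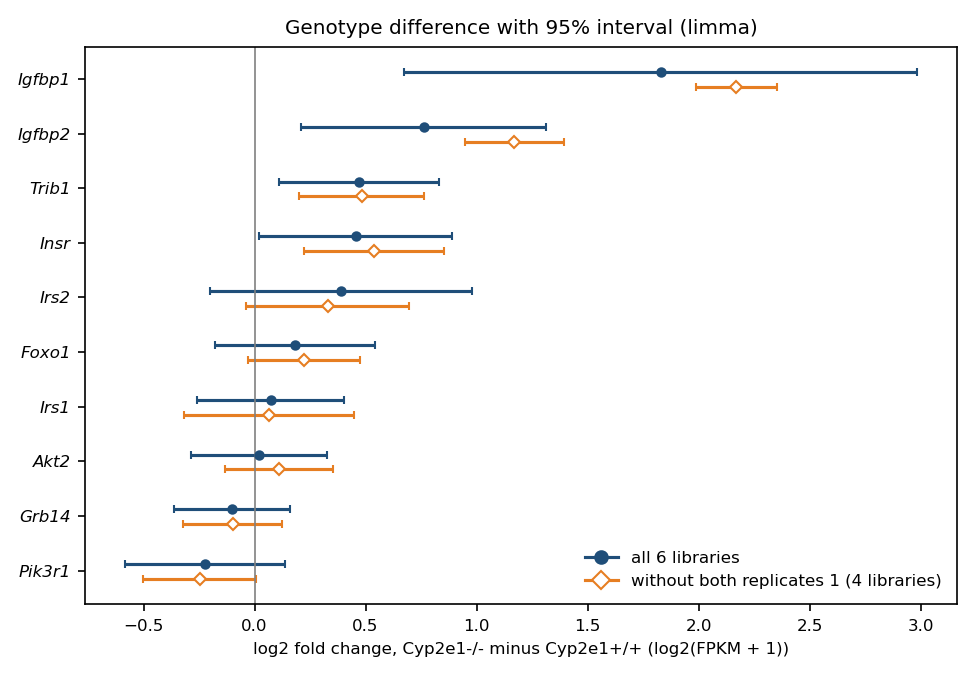
Log2 fold change of each member (knockout minus wild type on log2(FPKM + 1)) with its 95% interval from limma, over all 6 libraries (filled circles) and without replicate 1 of both genotypes (open diamonds). The intervals of Igfbp1, Igfbp2, Trib1 and Insr lie above 0 in both fits, and those of the other 6 members include 0.

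Knockout replicate 1 was low for most members, while the count for wild type replicate 1 was near the share over all tested genes. In 9 of 10, all but Grb14, knockout replicate 1 was the lowest knockout library, and in 6 of 10 wild type replicate 1 was the lowest wild type library, against 57.3% and 46.7% of tested genes. In 4 members (Insr, Irs2, Foxo1 and Igfbp2) knockout replicate 1 lay within the wild type range while knockout replicates 2 and 3 both lay above it, which held for 8.19% of tested genes. The mirror pattern, with knockout replicates 2 and 3 both below the range, was met by 0 members and 4.65% of tested genes. Both descriptions were chosen after the values were seen. The median deviation of the members from their own means was 0.21 and 0.30 on the log2 scale in knockout replicates 2 and 3, -0.19 in knockout replicate 1, and -0.25, 0.01 and -0.08 in wild type replicates 1, 2 and 3. The list of FOXO1-activated genes had a like order of libraries, with this median at -0.15, 0.10 and 0.23 in the knockout and -0.24, 0.04 and -0.08 in wild type. Proximal signalling genes had -0.13, 0.13 and 0.13 and -0.27, 0.08 and 0.07. Genes of the mTOR and GSK3 list had -0.231, 0.08 and 0.16 and -0.061, 0.09 and 0.032. Not all lists did so: insulin-induced genes had -0.219 and -0.225 in knockout replicates 1 and 2. Wild type replicates 1, 2 and 3 stood at 0.15, -0.259 and -0.228 for the Tribbles list and 0.091, 0.045 and 0.102 for the growth factor axis. The same median over all tested genes was not taken. The Kupffer cell and macrophage markers also set knockout replicate 1 apart from knockout replicates 2 and 3, but in the opposite direction. The summed level of 8 Kupffer cell and macrophage markers was 128, 86.0 and 66.6 FPKM in knockout replicates 1, 2 and 3 and 124 to 140 FPKM in wild type, and 7 of the 8 had a lower mean in the knockout. In bulk liver, fewer cells of a type and less RNA per cell cannot be told apart, and the part of the cell makeup in the values of the members was not tested. Sums of 7 endothelial markers overlapped between genotypes (knockout 61.4 to 84.2 FPKM, wild type 60.6 to 79.99 FPKM), but 6 of the 7 had a lower mean in the knockout, all but Clec4g, the most abundant of them. Those of 7 stellate cell markers were 81.2 to 87.1 and 92.3 to 105 FPKM, with 5 of the 7 lower in the knockout. Dcn made up most of these sums (61.8 to 63.8 and 67.2 to 83.7 FPKM), and each of the other stellate cell markers overlapped between genotypes. The 5 cholangiocyte markers, mostly Spp1, summed to 18.9 to 21.7 and 25.4 to 32.4 FPKM. Only 2 of the 5, Spp1 among them, had a lower mean in the knockout, and all but Spp1 were below 1 FPKM in every library. The 6 lymphocyte markers summed to at most 1.89 FPKM in any library, and Adipoq, which defines fat cells, was at 0 in 5 of 6. Pancreatic Pnlip was at 0 in 5 of 6 libraries as well, while Cela1 made up nearly all of the pancreas list (21.4 to 44.2 FPKM).

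The other genes of the pathway were taken from 6 lists, with 104 distinct genes in the table and 89 tested. The lists were chosen with earlier results of these data known. Of the 89 tested genes 1 rose, 2 fell and 86 did not pass, while 0.762% of all tested genes passed. All 3 that passed belonged to the list of insulin-induced liver genes. The median log2 fold change of the 89 was 0.01. The counts depended on replicate 1: without knockout replicate 1, 6 rose and 3 fell (2.12% of all tested genes passed), and without replicate 1 of both genotypes 13 rose and 10 fell. In the latter comparison 11.9% of all tested genes passed, and 4 of 10 members did (Igfbp1, Igfbp2, Trib1 and Insr).

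Of 23 tested FOXO factors and FOXO1-activated liver genes none passed (limma), 6 had an unadjusted p under 0.05, and 16 were higher on average in the knockout (median log2 fold change 0.16). Over all tested genes 9.93% had such a p, and 4401 of 9968 had a positive fold change. Pck1, the gene of the gluconeogenic enzyme phosphoenolpyruvate carboxykinase, had 408, 953 and 1024 FPKM in knockout replicates 1, 2 and 3 and 214, 333 and 308 in wild type. As with Igfbp1, the groups did not overlap and knockout replicates 2 and 3 were far above the rest. The log2 fold change of Pck1 was 1.39 (SE 0.32; limma, adjusted p = 0.11). It passed with the replicate as a block (limma, adjusted p = 0.027) and without knockout replicate 1 (1.82; limma, adjusted p = 0.0015). Pdk4, whose kinase holds back pyruvate oxidation in fasting, had 2.17, 3.2 and 4.05 FPKM against 1.75, 1.55 and 1.47 (log2 fold change 0.65; limma, adjusted p = 0.22). Its groups did not overlap, and knockout replicate 1 was again the nearest to wild type.

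Apoc3, an abundant apolipoprotein gene of that list, averaged 3411 ± 390 FPKM (knockout) and 3422 ± 463 FPKM (wild type), with a 95% interval of its log2 fold change of -0.35 to 0.35. Chosen after their values were seen, G6pc (83.4, 196 and 205 FPKM against 86.1, 119 and 119) and the tyrosine aminotransferase gene Tat (310, 679 and 729 against 272, 320 and 302) had the same order of knockout libraries as Igfbp1. Neither passed, with log2 fold changes of 0.48 for G6pc and 0.85 for Tat (limma, adjusted p = 0.67 and 0.30). Unlike Igfbp1, G6pc in knockout replicate 1 lay below all wild type libraries. Knockout replicate 1 was the lowest knockout library for 57.3% of all tested genes. Tat is also 1 of the 7 hepatocyte markers. Pck1, G6pc and Tat also answer to glucagon and glucocorticoids, so they are not read-outs of insulin alone. Without replicate 1 of both genotypes 8 genes of the list rose (Pck1, Tat, G6pc, Klf15, Cpt1a, Pdk4, Pnpla2 and Ccng2) and 2 fell (Bcl6 and Cited2), against 11.9% of all tested genes in either direction.

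Among 14 tested insulin-induced liver genes 1 rose, 2 fell and 11 did not pass, 10 had an unadjusted p under 0.05, and 11 had a negative fold change, with a median of -0.42. Over all tested genes 0.762% passed, 9.93% had such a p, and 5567 of 9968 had a negative fold change. Without replicate 1 of both genotypes 1 rose and 8 fell, among them Elovl6, Acaca and Fasn, against the same 11.9% of all tested genes. Thrsp, a lipogenic regulator, had 386, 401 and 379 FPKM across knockout replicates, against 917, 814 and 845 across wild type, and Pklr, the liver pyruvate kinase gene, had 40.5, 51.0 and 51.6 against 86.0, 91.4 and 83.1. Here knockout replicate 1 stood with the other knockout libraries, unlike for Igfbp1 and Pck1. Thrsp fell by 1.14 on the log2 scale (SE 0.12; limma, adjusted p = 0.0014) and Pklr fell by 0.86 (SE 0.13; limma, adjusted p = 0.016). The call of Pklr was lost on leaving out replicate 2 of the knockout, or replicate 2 or 3 of wild type (limma, adjusted p = 0.071, 0.10 and 0.081). Its exons overlap those of Hcn3, which was listed at 0.88 to 1.23 FPKM across the knockout and 3.05 to 4.44 across wild type, so reads at the shared bases may be split between them.

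Insig2 was the gene of this list that rose. It encodes a protein of the endoplasmic reticulum that holds back SREBP processing, and its main liver transcript is known to be lowered by insulin, so its place in an insulin-induced list goes against what is known of it. Its level was 69.6, 73.5 and 67.1 FPKM across the knockout, against 32.7, 35.7 and 34.8 across wild type. The 3 libraries of each genotype lay close together, with knockout replicate 1 among the other knockout libraries. Insig2 rose by 1.01 ± 0.11 on the log2 scale (SE; limma, adjusted p = 0.0026), and it passed under every alternative run, each single library left out included. Srebf1, the lipogenic factor gene, overlapped between groups (16.6, 17.6 and 20.9 FPKM against 30.2, 20.0 and 15.0).

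**Figure D3:**
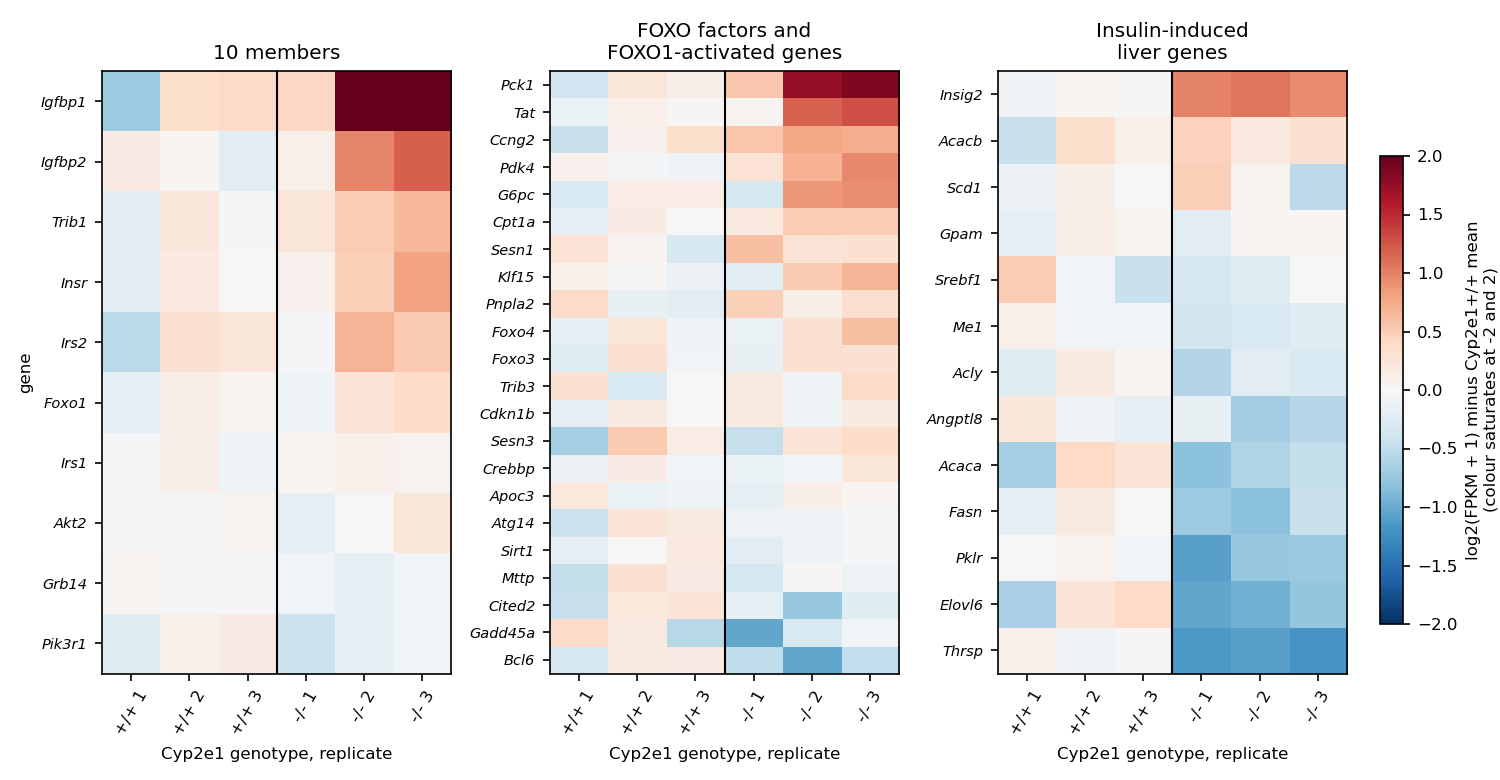
Colour gives log2(FPKM + 1) of each gene in each library minus its wild type mean, for the 10 members and the genes of 2 lists that are reported here (rows, ordered by fold change; columns are libraries). Igfbp1, Pck1 and Tat are highest in knockout replicates 2 and 3, whereas Insig2 is high, and Thrsp and Pklr are low, in all 3 knockout libraries.

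Of 23 tested adaptors, kinases and phosphatases, with a median log2 fold change of 0.08, none passed (limma). An unadjusted p under 0.05 was met by 2 of them, against 9.93% of all tested genes. These were Socs3, an inhibitor of cytokine and insulin receptors (knockout 1.88 ± 0.41 FPKM, wild type 1.12 ± 0.37 FPKM; limma, adjusted p = 0.45), and Prkci, an atypical protein kinase C gene (3.49 ± 0.57 and 2.28 ± 0.79; limma, adjusted p = 0.48). The adaptor gene Grb7 averaged 21.7 ± 2.4 and 20.5 ± 2.54 FPKM. Of 18 tested genes of the mTOR and GSK3 branch none passed (limma) and 0 had an unadjusted p under 0.05, with a median of 0.02. The liver glycogen synthase gene Gys2 averaged 93.6 ± 21.4 and 105.5 ± 5.92 FPKM, and the glycogen-targeting subunit gene Ppp1r3b 52.8 ± 9.55 and 50.5 ± 6.64. Rheb (26.2 ± 0.76 and 31.1 ± 2.83 FPKM) and Mlst8 (1.81 ± 0.3 and 2.52 ± 0.5), which encode the activator and a subunit of mTORC1, had the smallest p of the branch (limma, adjusted p = 0.58 and 0.59). Without replicate 1 of both genotypes 1 gene of the branch rose (Ppp1r3c) and 0 of the 23 proximal genes passed in limma. Of all tested genes 11.9% passed in that fit. There 5 of the proximal genes had an unadjusted p under 0.05, but the share of all tested genes at such a p was not taken.

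Of 8 tested genes of the growth factor axis that Igfbp1 and Igfbp2 bind into, none passed (limma), 2 had an unadjusted p under 0.05, and 6 had a negative fold change. Over all tested genes 9.93% had such a p, and 5567 of 9968 had a negative fold change. Igfals, which encodes the acid-labile subunit of the circulating complex, had 20.6, 27.2 and 27.5 FPKM across knockout replicates, against 37.3, 36.7 and 32.7 across wild type. Its groups did not overlap (log2 fold change -0.50, SE 0.14; limma, adjusted p = 0.22). Igf1, the hormone gene, had 37.6, 44.4 and 49.2 FPKM against 48.2, 55.1 and 64.2, and its groups overlapped (log2 fold change -0.34; limma, adjusted p = 0.48). The binding protein gene Igfbp4 stood at 837 ± 86.8 and 705 ± 67.9 FPKM, and the receptor gene Ghr at 185 ± 6.41 and 214 ± 11.05. Igfbp4 was the 1 gene of this axis that rose without replicate 1 of both genotypes. Among 4 tested genes of the Tribbles family and its partners none passed (limma) and 0 had an unadjusted p under 0.05. Cebpa, whose protein TRIB1 sends to degradation, averaged 109 ± 18.8 and 90.9 ± 24.1 FPKM, and the related factor gene Cebpb averaged 153 ± 46.0 and 112 ± 21.7 FPKM. Over all 6 libraries their log2 fold changes were 0.27 and 0.42 (limma, adjusted p = 0.71 and 0.59). Without replicate 1 of both genotypes both rose, Cebpa by 0.63 and Cebpb by 0.82 (limma, adjusted p = 0.0012 and 0.002). In that fit 11.9% of all tested genes passed. For Igfbp4, Cebpa and Cebpb replicate 1 held the lowest knockout and the highest wild type value. Leaving it out thus raises these fold changes by construction.

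**Figure D4:**
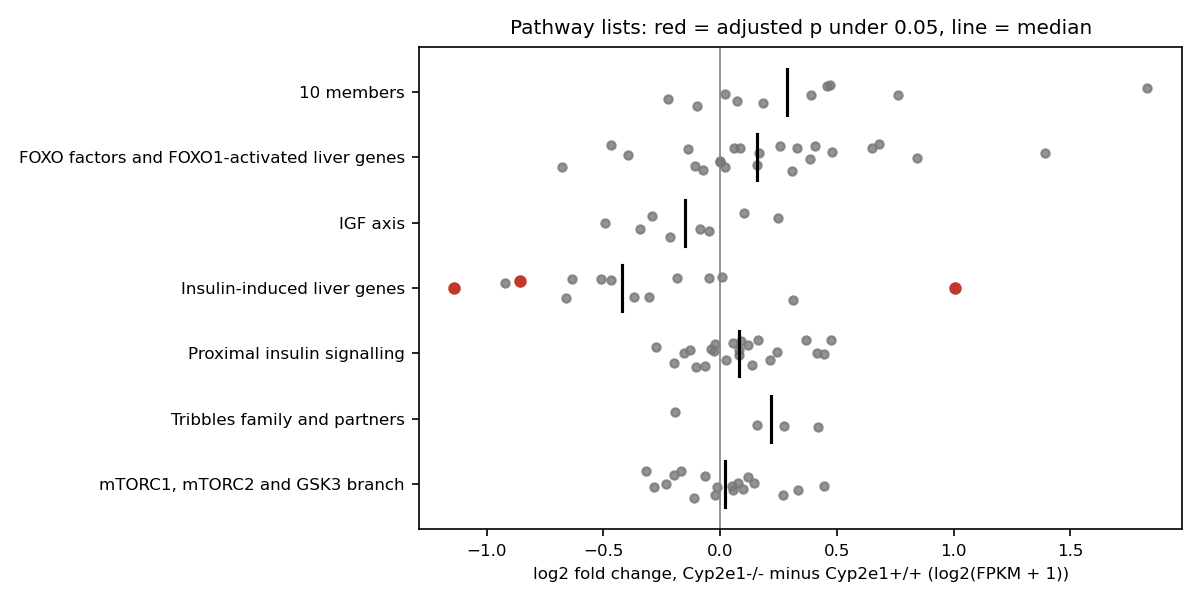
Log2 fold change (knockout minus wild type) of the 10 members and of the tested genes of 6 pathway lists. Each point is a gene, red marks an adjusted p under 0.05 (limma), and the line is the median of the list; the only red points are Thrsp, Pklr and Insig2, and the medians run from -0.42 for insulin-induced genes to 0.29 for the members.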

How the data were processed

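Liver RNA was sequenced in 3 libraries of Cyp2e1-/- mice and 3 libraries of Cyp2e1+/+ mice. Per the labels' protocols, total RNA and an Illumina TruSeq kit were used. The deposited values are FPKM, per the file headers. The submitters' processing notes name HISAT and mm10; the sources used here do not give the quantifier, its annotation or its strand setting. No count model was used. The test was limma 3.58.1 (eBayes with trend, R 4.3.3) on log2(FPKM + 1), knockout minus wild type, for genes reaching 1 FPKM in 3 or more of the 6 libraries, with Benjamini-Hochberg adjustment over 9968 genes. Rose and fell mean an adjusted p under 0.05. The code was tested on simulated data. Fold changes of low genes are understated. P-values measure the spread between these libraries.

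Depth was estimated from steps in low FPKM values of transcripts of 450 to 1200 bases: 69.5% to 74.9% were whole to within 0.15 (chance gives 30%), with the steps fitted to the same values.

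Replicate numbers come from the titles. Deviations from the group mean of same-numbered libraries correlated at 0.30, 0.198 and 0.157 over tested genes, so they were treated as paired in an alternative fit; these values are not independent of each other, and the knockout's replicate 3 had a higher value with replicate 2 of wild type (0.212).

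The members and lists were chosen with earlier results of these data known. Named genes were all members, genes of each list past the threshold, or else the 2 most abundant and the 2 with the smallest p; others are said to be chosen later. Some genes that the rule names are not reported here, but they count in the lists' totals. Positions and promoters are RefSeq, GRCm38.p6.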

Additional observations from a re-analysis of the deposited data

How the results depend on the processing

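Of 178 values of members under alternatives, 167 kept their direction and their side of the threshold, 10 passed the threshold and 1 changed sign. No member was called with pseudocounts of 0.1 or 0.5, other filters, other scalings or other priors. With all libraries 76 genes, 0 members and 3 pathway genes were called. The count of genes was 32 without the filter, 48 with 1 FPKM required in all 6 libraries, 1151 with sample quality weights, 1183 without replicate 1 of both genotypes, and 29 to 211 when 1 library was left out. Members called numbered 3, pathway genes 24, with quality weights (log2 fold change 2.05 for Igfbp1, 1.02 for Igfbp2 and 0.44 for Trib1). Without both replicates 1 they numbered 4 and 23 (Igfbp1 2.17, Igfbp2 1.17, Trib1 0.48, Insr 0.54), and when 1 library was left out 0 to 2 and 2 to 9. Leaving out 1 library gave 1.45 to 2.53 for Igfbp1, 0.55 to 1.09 for Igfbp2, 0.28 to 0.64 for Insr, 0.37 to 0.58 for Trib1, 0.12 to 0.60 for Irs2, 0.09 to 0.32 for Foxo1, -0.35 to -0.12 for Pik3r1 and -0.0942 to 0.123 for Akt2 (-0.0942 without knockout replicate 3), the only member to change sign. The adjusted p of Igfbp1 (limma) ran from 2.4e-06 to 0.65 over its alternatives. With the replicate block 1 member was called (Igfbp1, 1.83), Pck1 passed as well, and no other call of a member or pathway gene changed. Pklr lost its call without the filter (limma, adjusted p = 0.053). The cause of these changes was not tested. Irs1 and Irs2 fall under the filter of 1 FPKM in all libraries and have no value there. At 3 libraries a genotype, the intervals leave room for fold changes of the sizes given beside each member.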

Other observations

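Among genes below the filter, Ppp1r3g, a glycogen-targeting subunit gene of the mTOR and GSK3 list, was chosen after its values were seen. It stood at 0.26, 1.27 and 0.9 FPKM in knockout replicates 1, 2 and 3 and at 0.19, 0.18 and 0.19 FPKM in wild type. The related gene Ppp1r3c had 10.02, 31.7 and 30.2 FPKM in the knockout and 21.3, 13.6 and 12.7 FPKM in wild type (log2 fold change 0.45; limma, adjusted p = 0.77). Its fold change was 1.18 without replicate 1 of both genotypes (limma, adjusted p = 1.7e-04) and 1.01 with sample quality weights (limma, adjusted p = 0.015). Of all tested genes 11.9% and 11.5% passed in these fits, in that order. Replicate 1 held the lowest knockout and the highest wild type value of Ppp1r3c, so leaving it out raises the fold change by construction. In both genes knockout replicates 2 and 3 were the highest libraries. For Ppp1r3c knockout replicate 1 was the lowest of all.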
